A study of Homo sapiens with 6 samples.

Results

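Matrix metalloproteinases (MMPs) are zinc-dependent endopeptidases that cut collagens and other matrix proteins, and tissue inhibitors of metalloproteinases (TIMPs) are small secreted proteins that block them. The 10 genes described here are 7 MMP genes (MMP1, MMP2, MMP10, MMP13, MMP14, MMP15 and MMP24) and 3 TIMP genes (TIMP1, TIMP2 and TIMP3), chosen by symbol among the 19469 genes of the count table, and all 10 have a row there. They were followed in the pancreatic cancer line L3.6pl, an established line of metastatic human cells, that had been grown without treatment and sorted by FACS on surface L1CAM. The comparison asks how transcripts of proteases and inhibitors differ between cells with low L1CAM (L1low, 3 libraries) and cells with high L1CAM (L1high, 3 libraries). The labels write the line as L3.6PL in the titles and as L6.6pl in the cell line field. Both groups come from 1 cell line, and no label says whether the 3 libraries of a group came from separate cultures or sorts, so p-values measure the spread between these libraries, which may be technical.

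MMPs are made as inactive proenzymes whose prodomain must be cut away. MMP1 and MMP13 are secreted collagenases, which can cut the triple helix of fibrillar collagen. MMP2 is a secreted gelatinase that acts on denatured collagen and collagen IV, and MMP10 is a secreted stromelysin with broad matrix substrates that can also activate other proMMPs. MMP14, MMP15 and MMP24 are membrane-type MMPs, which are activated inside the cell by furin-like convertases and then act at the cell surface. TIMP2 has a double role, since it inhibits MMPs and also bridges MMP14 to proMMP2 so that a neighbouring MMP14 can activate it. TIMP1 inhibits most secreted MMPs but is a weak inhibitor of membrane-type MMPs, while TIMP3 binds to the matrix and also blocks several ADAM and ADAMTS proteases. Transcript counts do not show how much enzyme is secreted or active.

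Reads counted on genes ran from 16334610 to 21064685 per library. The sorting marker L1CAM stood at 84.0, 69.8 and 89.5 CPM (read counts scaled to a common library size by edgeR's TMM method) in L1high replicates 1, 2 and 3 and between 17.7 and 23.7 in the L1low libraries. The test used throughout is edgeR's quasi-likelihood F test, with p adjusted over the whole table by Benjamini-Hochberg, and genes under 0.05 are called. It called 1548 of 19467 genes (7.95%), with 4.58% higher and 3.37% lower in L1low cells. With the replicate number as a block, 2363 genes were called. All 7 epithelial markers (EPCAM, CDH1, KRT8, KRT18, KRT19, KRT7 and CLDN4) were in the table, summing to between 4540 and 5410 CPM per library. Of 9 fibroblast markers, LUM and ACTA2 alone were in it, and DCN, PDGFRA, PDGFRB, FAP, THY1, COL6A3 and POSTN were not among its genes. The summed level of LUM and ACTA2 ran from 85.0 to 97.5 CPM in L1high and from 138 to 159 in L1low libraries, nearly all of it LUM. Of 6 leukocyte markers CD68 and ITGAX were in the table, with sums of at least 19.7 CPM in L1high and of 15.6 to 18.3 in L1low libraries, and of 4 endothelial markers PECAM1 alone, at 11.3 to 11.9 and 13.2 to 14.7 CPM. The part of other cell types in the results was not tested beyond these levels. In such bulk libraries, fewer cells that express a gene and less RNA of it per cell cannot be told apart.

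Of the 10 genes, 9 passed the test, where 7.95% of all genes did, but the genes were chosen with earlier results of these data known. The 7 MMP genes are the same 7 that passed among the 12 MMP genes of the table, so their count is fixed by that choice and is given as a description. MMP1, MMP2, MMP10, MMP13, MMP14, MMP24 and TIMP3 rose in L1low cells, and MMP15 and TIMP1 fell. TIMP2 did not pass. For 9 of the 10 genes the groups were fully apart, 7 with every L1low library above every L1high library and 2 with every one below. Among all genes tested 28.8% were apart in this way, 15.2% with L1low higher and 13.7% with L1low lower. The median log2 fold change (L1low against L1high, positive where L1low was higher) was 0.90 over the 7 MMP genes, which also follows from that choice. It was 0.34 over all 12 MMP genes of the table and -0.01 over all genes tested.

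**Figure D1:**
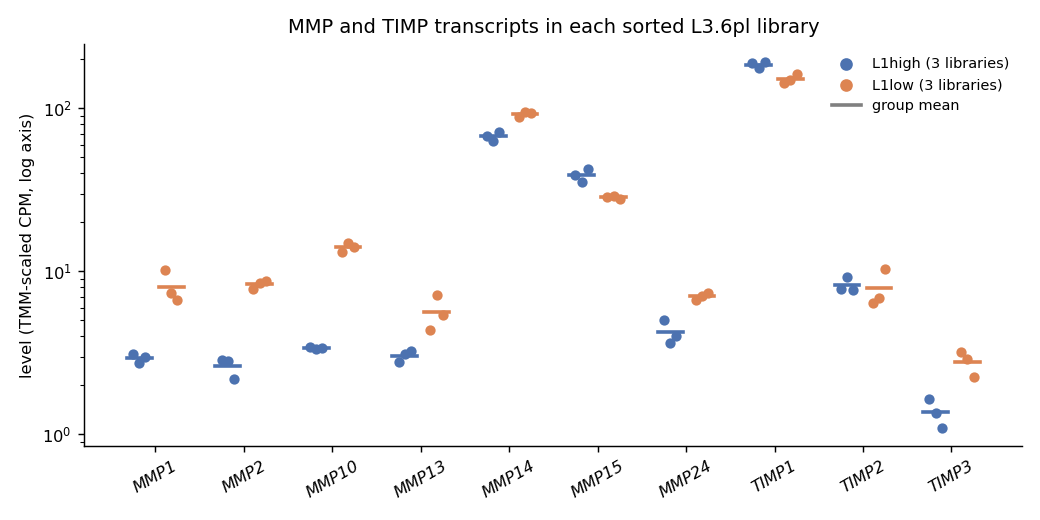
Level of each of the 10 genes in every library, in TMM-scaled CPM on a log axis, with L1high libraries in blue, L1low libraries in orange and a bar at each group mean. The groups are apart for every gene except TIMP2, and TIMP1 and MMP14 lie above the other genes.

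Upstream sequence was at hand for 6 of the 10 genes in RefSeq's promoter table (GRCh38.p14), namely MMP10, MMP14, MMP15, MMP24, TIMP1 and TIMP3, and MMP1, MMP2, MMP13 and TIMP2 had no entry. The 120 bases before the start site are shown for the gene that rose most (MMP10), the most abundant MMP (MMP14), the MMP that fell (MMP15) and the inhibitors that moved in opposite directions (TIMP1 and TIMP3). They lie at chr11:102780629-102780748 on the minus strand for MMP10 and, on the plus strand, at chr14:22836465-22836584 for MMP14, chr16:58025634-58025753 for MMP15, chrX:47582316-47582435 for TIMP1 and chr22:32801585-32801704 for TIMP3. All read 5′ to 3′ along the gene and end at the base before the start. The start sites of RefSeq used here lie shortly inside the GENCODE gene for MMP14 and TIMP1. Capitals mark the letters of an AP-1 site with any middle base, TGANTCA, on either strand. They also mark a TATA box, TATAAA, on the strand of the gene. The letters of a GC box, GGGCGG, are in capitals on either strand, so that its reverse complement is marked too.
MMP10: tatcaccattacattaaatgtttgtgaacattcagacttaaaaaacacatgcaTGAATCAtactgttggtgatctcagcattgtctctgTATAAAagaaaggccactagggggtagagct
MMP14: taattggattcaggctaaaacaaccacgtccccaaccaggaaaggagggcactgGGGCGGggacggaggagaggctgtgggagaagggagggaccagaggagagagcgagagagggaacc
MMP15: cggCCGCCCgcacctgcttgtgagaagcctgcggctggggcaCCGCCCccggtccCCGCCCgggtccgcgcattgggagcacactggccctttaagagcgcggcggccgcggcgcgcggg
TIMP1: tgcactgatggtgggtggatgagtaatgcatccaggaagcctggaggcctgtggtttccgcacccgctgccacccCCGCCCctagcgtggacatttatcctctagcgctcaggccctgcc
TIMP3: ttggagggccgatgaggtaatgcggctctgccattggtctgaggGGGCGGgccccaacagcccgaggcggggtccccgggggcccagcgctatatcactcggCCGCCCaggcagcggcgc
In the 250 bases before the start, MMP10 alone of the 6 genes held TGANTCA and TATAAA, each once, with first bases 67 and 31 bases upstream of the start. TGANTCA occurred in 6.57% and TATAAA in 6.80% of all 35116 promoters of the table over the same length. The strict AP-1 letters TGAGTCA, on either strand, were found in none of the 6 genes and in 4.20% of all promoters. MMP10 held no GC box, while 5 were found in MMP15, 5 in TIMP3, 3 in MMP24, 2 in TIMP1 and 1 in MMP14, and 42.6% of all promoters held at least 1. The GC content of the 250 bases was 34.4% in MMP10 and between 56.8% (MMP14) and 77.6% (MMP24) in the others, and 5.27% of all promoters were at or under the value of MMP10. The ETS core AGGAA, on either strand, was also searched and occurred 2 times each in MMP10, MMP14 and TIMP1, 1 time in MMP15 and not in MMP24 or TIMP3, against 56.8% of all promoters. These matches describe the letters of this window and say nothing of binding in these cells.

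Among the secreted proteases, MMP10 rose most. MMP10 (ENSG00000166670, chromosome 11 of GRCh38, minus strand, from 102770502 to 102780628) stood at 3.44, 3.36 and 3.41 CPM in L1high replicates 1, 2 and 3 and at 13.2, 15.0 and 14.2 CPM in L1low replicates 1, 2 and 3. The L1high libraries were nearly level (SD 0.0415 CPM, n = 3), and the lowest L1low library stood far above all of them. MMP10 rose 4.14-fold (log2 fold change 2.05, standard error 0.13, adjusted p = 4.7e-06 by edgeR). The summed counts behind it were 198 in L1high (exact Poisson 95% interval 171 to 228, counting error only) and 759 in L1low cells (706 to 815).

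MMP2 (ENSG00000087245, plus strand of chromosome 16 from 55389700 to 55506691) stood at 2.88, 2.82 and 2.19 CPM in L1high replicates 1, 2 and 3 and at 7.76, 8.52 and 8.75 CPM in L1low replicates 1, 2 and 3. L1high replicate 3 was the lowest of the 6 libraries, and the groups did not overlap. The rise was 3.14-fold (log2 fold change 1.65, standard error 0.16, adjusted p = 6.4e-05 by edgeR). In counts, the libraries held 61, 58 and 36 reads of MMP2 in L1high cells and 141, 153 and 155 in L1low cells.

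MMP1 (ENSG00000196611, minus strand of chromosome 11 from 102789401 to 102798160) stood at 3.11, 2.73 and 2.98 CPM in L1high replicates 1, 2 and 3 and at 10.2, 7.35 and 6.66 CPM in L1low replicates 1, 2 and 3. The L1low libraries spread widely (coefficient of variation 23.1%, against 6.67% in L1high cells), with replicate 1 the highest. MMP1 rose 2.74-fold (log2 fold change 1.45, standard error 0.19, adjusted p = 6.0e-04 by edgeR). Left out in turn, each library kept the call of MMP1, MMP2 and MMP10, and the log2 fold change of MMP1 was lowest, at 1.25, without L1low replicate 1.

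MMP13 (ENSG00000137745, minus strand of chromosome 11 from 102942995 to 102955732) was the other secreted collagenase in the table. It stood at 2.78, 3.12 and 3.23 CPM in L1high replicates 1, 2 and 3 and at 4.40, 7.13 and 5.42 CPM in L1low replicates 1, 2 and 3. L1low replicate 2 was the highest, and its coefficient of variation over the L1low libraries (24.4%) was close to that of MMP1, although the highest library differed. The rise was 1.86-fold (log2 fold change 0.90, standard error 0.20, adjusted p = 0.017 by edgeR). It was not called without L1high replicate 1 (0.83, adjusted p = 0.090 by edgeR) or without L1low replicate 2 (0.69, adjusted p = 0.097).

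MMP1, MMP10 and MMP13 lie in 1 cluster of 9 MMP genes on chromosome 11, which spans 435 kb on GRCh38, and these 3 were the cluster's genes in the table. MMP10 and MMP1 are 8.77 kb apart, and MMP13 lies 145 kb beyond MMP1. WTAPP1, a transcribed pseudogene on the opposite strand, overlaps exons of MMP1 and also reaches across MMP10. It stood at 1.18, 0.828 and 0.792 CPM in L1high and at 2.04, 1.56 and 1.98 CPM in L1low libraries (log2 fold change 0.98, adjusted p = 0.052 by edgeR, and 0.039 with the replicate number as a block). The strand setting of the authors' counting is not given in the sources used here. Whether reads of MMP1 and of WTAPP1 were counted apart in the shared stretch is therefore not known.

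The membrane-type proteases moved both ways. MMP14 (MT1-MMP, ENSG00000157227, plus strand of chromosome 14 from 22836560 to 22849041) activates proMMP2 at the cell surface. It stood at 68.2, 63.2 and 71.2 CPM in L1high replicates 1, 2 and 3 and at 88.8, 95.5 and 93.6 CPM in L1low replicates 1, 2 and 3. The lowest L1low library was above the highest L1high library, and MMP14 rose 1.37-fold (log2 fold change 0.46, standard error 0.07, adjusted p = 0.0027 by edgeR). The call stayed with each library left out, with a highest adjusted p of 0.030 by edgeR.

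MMP15 (MT2-MMP, ENSG00000102996, plus strand of chromosome 16 from 58025754 to 58046901) is a close relative of MMP14. It stood at 39.2, 35.4 and 42.6 CPM in L1high replicates 1, 2 and 3 and at 28.7, 29.1 and 27.7 CPM in L1low replicates 1, 2 and 3. All L1low libraries were below all L1high libraries and close to each other. MMP15 fell to 0.73 times its L1high level (log2 fold change -0.45, standard error 0.09, adjusted p = 0.011 by edgeR). Without L1high replicate 1 the log2 fold change was again -0.45 but not called (adjusted p = 0.062 by edgeR), and without L1low replicate 2 it was -0.47 (adjusted p = 0.057).

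MMP24 (MT5-MMP, ENSG00000125966, plus strand of chromosome 20 from 35226690 to 35276998) is best known from the nervous system. It stood at 5.0, 3.65 and 4.02 CPM in L1high replicates 1, 2 and 3 and at 6.66, 7.08 and 7.40 CPM in L1low replicates 1, 2 and 3. L1high replicate 1 lay nearest the L1low libraries, which were close together. The rise was 1.66-fold (log2 fold change 0.73, standard error 0.16, adjusted p = 0.014 by edgeR), and without L1low replicate 2 it was not called (0.73, adjusted p = 0.069). MMP24OS, a gene on the opposite strand whose exons overlap those of MMP24, also rose, from at most 16.8 CPM in the L1high libraries to 22.3, 23.1 and 23.7 CPM in the L1low libraries, by a log2 fold change of 0.50 (adjusted p = 0.0062 by edgeR). Since the strand setting of the counting is not given, it is not known whether reads of the pair were counted apart where they overlap. The unnamed genes ENSG00000279253 (log2 fold change 0.38, adjusted p = 0.39 by edgeR) and ENSG00000261582 (-0.02, adjusted p = 0.92) also lie across MMP24 on the opposite strand, the former with shared exon bases.

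The inhibitors did not move together. TIMP1 (ENSG00000102265, plus strand of chromosome X from 47582408 to 47586789, inside an intron of SYN1 on the other strand) stood at 189, 176 and 192 CPM in L1high replicates 1, 2 and 3 and at 143, 150 and 163 CPM in L1low replicates 1, 2 and 3. The groups did not overlap, and TIMP1 fell to 0.817 times its L1high level (log2 fold change -0.29, standard error 0.07, adjusted p = 0.029 by edgeR). The fall was small and its call was lost in 4 of the 6 fits that left out 1 library. The adjusted p by edgeR was 0.14 without L1high replicate 1, 0.074 without L1high replicate 3, 0.095 without L1low replicate 1 and 0.14 without L1low replicate 2, with log2 fold changes from -0.33 to -0.25 over the 6 fits.

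TIMP3 (ENSG00000100234, plus strand of chromosome 22 from 32801705 to 32863041, inside an intron of SYN3 on the other strand) rose instead. It was the least abundant of the 10 genes, with 35, 28 and 18 counts in L1high replicates 1, 2 and 3 and 58, 52 and 40 counts in L1low replicates 1, 2 and 3. In CPM these were 1.65, 1.36 and 1.10 against 3.19, 2.90 and 2.26, without overlap. The rise was 2.01-fold (log2 fold change 1.01, standard error 0.24, adjusted p = 0.026 by edgeR), and the summed counts were 81 in L1high (exact Poisson 95% interval 64.3 to 101) and 150 in L1low cells (127 to 176). Every fit without 1 library gave a log2 fold change between 0.89 and 1.16, but only the fit without L1low replicate 3 kept the call, and the adjusted p by edgeR was 0.054, 0.066 and 0.066 without L1high replicates 1, 2 and 3 and 0.090 and 0.11 without L1low replicates 1 and 2.

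TIMP2 (ENSG00000035862, minus strand of chromosome 17 from 78852977 to 78925387) stood at 7.82, 9.20 and 7.74 CPM in L1high replicates 1, 2 and 3 and at 6.38, 6.91 and 10.3 CPM in L1low replicates 1, 2 and 3. L1low replicates 1 and 2 were below all L1high libraries and L1low replicate 3 was above all of them. TIMP2 did not pass (log2 fold change -0.07, adjusted p = 0.85 by edgeR, standard error 0.18), and the sign depended on the libraries used, from -0.30 without L1low replicate 3 to 0.06 without L1low replicate 1. CEP295NL, which shares exon bases with TIMP2 on the same strand, likewise had its highest value in L1low replicate 3, at 1.75 CPM against 0.991 to 1.36 in the other 5 libraries. Reads of CEP295NL and TIMP2 cannot be told apart in the shared stretch, whatever the strand setting. The unnamed gene ENSG00000267601, which shares exon bases with TIMP2 on the opposite strand, had a log2 fold change of -0.30 (adjusted p = 0.49 by edgeR).

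Levels of different genes were compared per kb of exon (CPM divided by the summed exon length in GENCODE release 44). On this scale TIMP1 was the highest of the 10 genes in both groups, at 128 ± 5.91 CPM per kb in L1high and 105 ± 7.02 in L1low cells (SD, n = 3 each), followed by MMP14 at 13.7 to 15.4 and 19.2 to 20.7 over the 3 libraries of each group. In L1high cells MMP15 (9.24 ± 0.851, SD, n = 3), MMP10 (1.94 ± 0.0236) and TIMP2 (1.33 ± 0.132) came next, and the ranges of MMP13, MMP1 and MMP24, which followed, overlapped from each gene to the next. In L1low cells MMP10 (8.02 ± 0.522 CPM per kb, SD, n = 3) stood above MMP15 (6.74 ± 0.172), the reverse of their order in L1high cells, without overlap in either group. Below them, MMP1, MMP13, MMP2, MMP24 and TIMP2 overlapped in range from each gene to the next. The reversal of MMP10 and MMP15 rests on the length scaling. In CPM without it, MMP15 stood above MMP10 in L1low cells as well (28.5 ± 0.727 against 14.1 ± 0.918, SD, n = 3). TIMP3 was last in both groups.

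Summed per kb, the 7 MMP genes stood at 29.8, 27.5 and 31.0 CPM per kb in L1high replicates 1, 2 and 3 and at 41.9, 44.7 and 42.8 in L1low replicates 1, 2 and 3. The 3 TIMP genes summed to 132, 123 and 134 CPM per kb in L1high and to 100, 105 and 115 in L1low libraries, with 98.1% to 98.9% of each sum in TIMP1. The ratio of MMP to TIMP transcript level was 0.225, 0.223 and 0.231 in L1high and 0.417, 0.425 and 0.373 in L1low libraries (means 0.226 ± 0.00428 and 0.405 ± 0.0281, SD, n = 3 each), and all L1low libraries were above all L1high libraries. On the log2 scale the means differed by 0.84. The level of the ratio depends on the length scaling. In CPM without it, the log2 ratio was -0.67 ± 0.04 in L1high and 0.02 ± 0.10 in L1low cells (SD, n = 3 each). No p is given for these sums, since the genes in them were chosen with their direction known. Without TIMP1, which sets the denominator, the log2 ratio ran from 3.95 to 4.39 in L1high and from 4.32 to 4.68 in L1low libraries, so the groups overlapped. With all MMP and TIMP genes of the table (12 and 4) the means differed by 0.74.

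**Figure D2:**
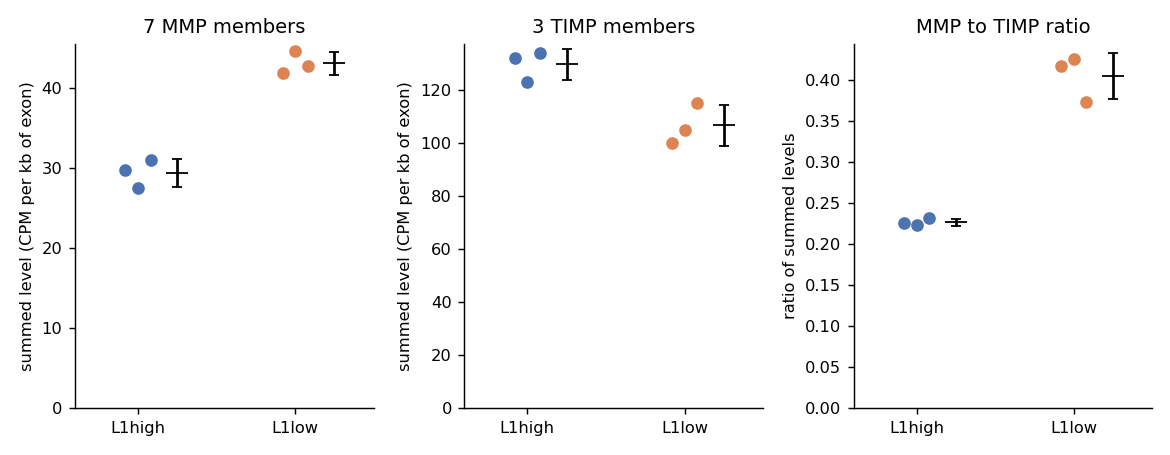
Summed level of the 7 MMP genes, summed level of the 3 TIMP genes (both in CPM per kb of exon) and their ratio in each library, with the mean and SD of each group in black. The ratio lies between 0.223 and 0.231 in the L1high libraries and between 0.373 and 0.425 in the L1low libraries.

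The make-up of the summed level of the 7 MMP genes also differed between the groups. The 5 MMP genes of the table that did not pass the test are not in this sum, so the shares depend on that choice. Among them, MMP16 stood at 16.7 and MMP17 at 24.9 CPM in L1high cells (means). In L1low cells they stood at 19.7 and 28.5 CPM. MMP14 held 49.6% ± 0.163 of the summed level of the 7 genes in L1high and 46.5% ± 0.803 in L1low cells (SD, n = 3 each). The share of MMP15 was 31.3% ± 1.03 in L1high and 15.6% ± 0.483 in L1low cells (SD, n = 3 each). The 4 secreted proteases MMP1, MMP2, MMP10 and MMP13 together held 15.8% ± 0.911 and 34.2% ± 0.720 (SD, n = 3 each). Among single pairs, MMP14 stood at 1.58 ± 0.0527 times MMP15 in L1high and at 2.97 ± 0.133 times in L1low cells (SD, n = 3 each). MMP2 per TIMP2, the enzyme and its bridge to MMP14, was 0.485, 0.405 and 0.374 in L1high and 1.60, 1.63 and 1.12 in L1low libraries. MMP14 per TIMP2 was 11.7, 9.22 and 12.4 against 18.7, 18.6 and 12.2, and here L1low replicate 3, with its high TIMP2, lay within the L1high range.

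**Figure D3:**
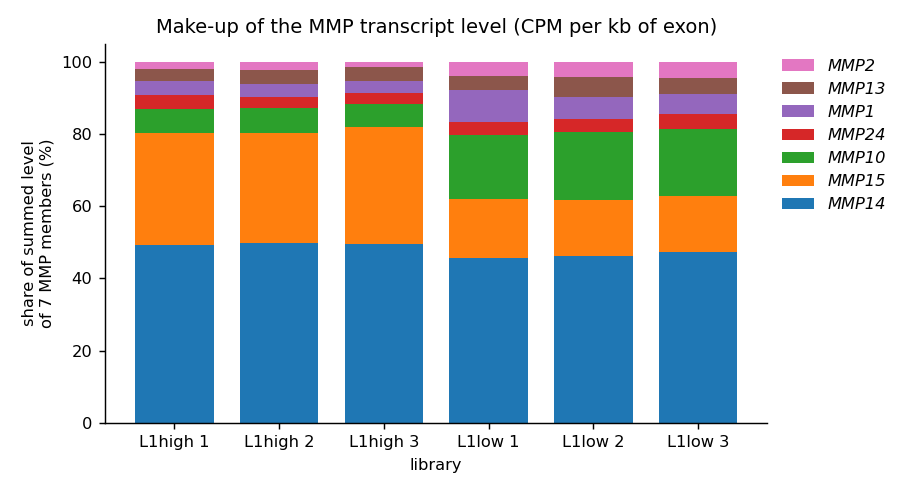
Share of each gene in the summed level of the 7 MMP genes (CPM per kb of exon, bars adding to 100%) for each of the 6 libraries. MMP15 takes from 30.5% to 32.5% of the sum in L1high and from 15.3% to 16.2% in L1low libraries.

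The table held 5 further MMP genes, MMP16, MMP17, MMP19, MMP25 and MMP28, and edgeR called none of them. None had an unadjusted p under 0.05 either, and DESeq2 called none. Their log2 fold changes ran from 0.05 (MMP19) to 0.23 (MMP16, standard error 0.17). MMP17, MMP25 and MMP28 lay between them, at 0.20, 0.17 and 0.10. MMP16, another membrane-type protease, stood at 17.3, 17.1 and 15.9 CPM in L1high and at 22.3, 23.0 and 13.7 CPM in L1low libraries, L1low replicate 3 being the lowest of all 6. The other 12 genes of the family, MMP3, MMP7, MMP9 and MMP11 among them, were not in the table, which holds genes above 1 CPM in at least 2 libraries. Of 8 genes on the list of metalloproteinase inhibitors that were in the table, 1 rose (TIMP3) and 2 fell (TIMP1 and TFPI2). These were 37.5% of the 8, against 7.95% of all genes, and the median log2 fold change was 0.01. TFPI2, a Kunitz-type inhibitor of plasmin and other serine proteases that also acts on some MMPs, stood at 4.43, 5.55 and 4.33 CPM in L1high and at 3.30, 3.06 and 2.65 CPM in L1low libraries (log2 fold change -0.67, standard error 0.18, adjusted p = 0.042 by edgeR), and it was called in none of the 6 fits that left out 1 library (adjusted p from 0.051 to 0.14). RECK, a membrane-anchored MMP inhibitor, had a log2 fold change of 0.17 (adjusted p = 0.59) and TIMP4 of 0.10 (adjusted p = 0.88), while the testican genes SPOCK1 and SPOCK2 had values of -0.25 (adjusted p = 0.13) and 0.30 (adjusted p = 0.52).

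**Figure D4:**
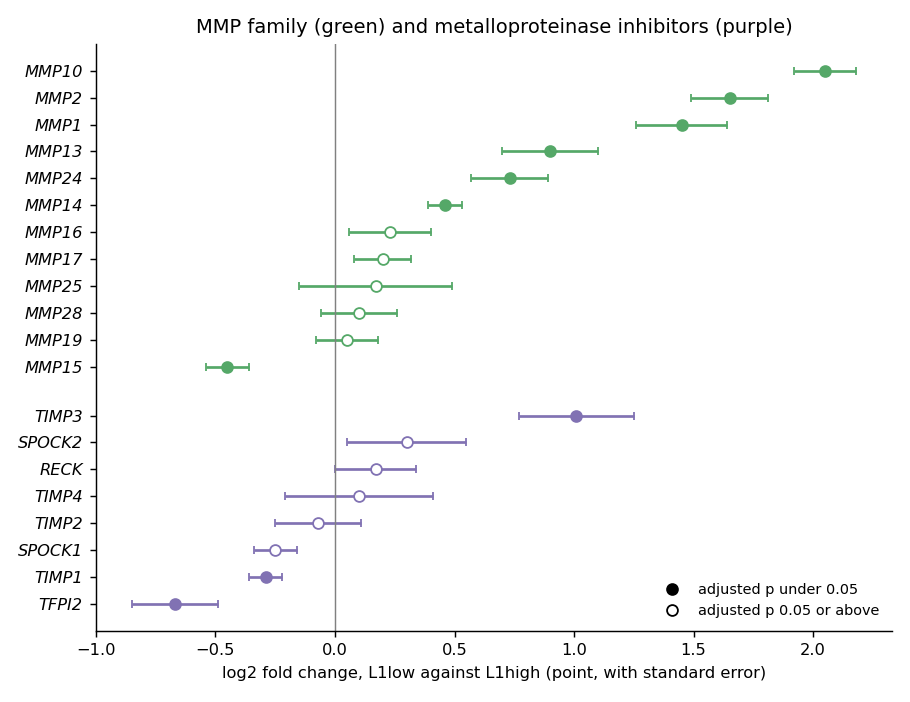
Log2 fold change of L1low against L1high with its standard error for the 12 MMP genes (green) and 8 inhibitor genes (purple) of the table, filled where the adjusted p of edgeR's quasi-likelihood test was under 0.05. Filled points run from 2.05 (MMP10) to -0.45 (MMP15) among the proteases and from 1.01 (TIMP3) to -0.67 (TFPI2) among the inhibitors.

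Of the 9 proteases in the table that activate proMMPs, 2 rose and 1 fell (33.3%, against 7.95% of all genes), with a median log2 fold change of -0.12. PCSK5, a furin-like convertase, rose from 31.5 ± 1.34 CPM in L1high to 44.1 ± 0.214 in L1low cells (SD, n = 3 each, log2 fold change 0.49, adjusted p = 0.0030 by edgeR), and FURIN itself had a log2 fold change of 0.04 (adjusted p = 0.82). The cathepsin gene CTSB rose (0.28) and CTSL fell (-0.31). The call of CTSB was lost without L1high replicate 1 (adjusted p = 0.066 by edgeR) or L1low replicate 2 (0.078), and that of CTSL without L1high replicate 1 (0.14), L1high replicate 3 (0.090), L1low replicate 1 (0.10) or L1low replicate 2 (0.17). PLAU, the urokinase gene, had a log2 fold change of -0.30 (adjusted p = 0.15) and PLAT, the tissue plasminogen activator gene, of -0.12 (adjusted p = 0.24).

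Of 14 genes for surface partners, inducers or clearance receptors of MMPs, 4 rose and 1 fell (35.7%, against 7.95% of all genes). The median log2 fold change was 0.02. ITGB3, the beta 3 chain of the integrin that can hold MMP2 at the cell surface, stood at 1.60, 1.66 and 1.64 CPM in L1high and at 7.60, 7.30 and 7.74 CPM in L1low libraries (log2 fold change 2.20, standard error 0.16, adjusted p = 7.4e-06 by edgeR), while its partner ITGAV had a log2 fold change of 0.03 (adjusted p = 0.91). LRP1, an endocytic receptor that clears MMP2 and other proteases, rose by a log2 fold change of 0.81 (adjusted p = 4.5e-04 by edgeR). CAV1, the caveolin gene, rose by 0.79 on the same scale (adjusted p = 9.2e-05). ITGB1 rose by 0.36, but was not called without L1high replicate 1 (adjusted p = 0.067 by edgeR) or L1low replicate 2 (0.089). LCN2, a lipocalin that binds MMP9, fell by 0.55 on the log2 scale, and was called without L1high replicate 1 or L1low replicate 3 but not without L1high replicate 2 (0.071), L1high replicate 3 (0.072), L1low replicate 1 (0.095) or L1low replicate 2 (0.14). BSG, the gene of the MMP inducer EMMPRIN, had a log2 fold change of -0.01 (adjusted p = 0.94).

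Among the related ADAM proteases, some of which TIMP3 inhibits, 2 of 8 genes fell, ADAM19 (log2 fold change -0.76, adjusted p = 0.011 by edgeR) and ADAM8 (-0.61, adjusted p = 0.022), and the median was -0.12. ADAM19 was not called without L1high replicate 1 (0.054) or L1low replicate 2 (0.056), and ADAM8 was not called without L1high replicate 1 (0.10), L1high replicate 3 (0.054), L1low replicate 2 (0.11) or L1low replicate 3 (0.069). ADAM10 and ADAM17, the main sheddases, had log2 fold changes of -0.07 (adjusted p = 0.65 by edgeR) and 0.12 (adjusted p = 0.45). None of the 8 ADAMTS genes in the table was called by edgeR's quasi-likelihood test or by DESeq2, and 1 had an unadjusted p under 0.05. Over all genes edgeR called 7.95%, and a list of 8 genes is too short to set its count apart from that share.

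AP-1 and ETS factors bind the promoters of many MMP genes, and the runt-domain factor RUNX2 that of MMP13. On a list of 11 measured genes for such factors, 10 from the AP-1 and ETS families and RUNX2, 4 rose (36.4%, against 4.58% of all genes). The median log2 fold change was 0.23. FOSB stood at 2200, 2090 and 2260 CPM in L1high and at 2850, 3050 and 2910 CPM in L1low libraries (log2 fold change 0.43, standard error 0.06, adjusted p = 8.3e-04 by edgeR), and ETS2 rose by a log2 fold change of 0.45 (adjusted p = 7.2e-04). FOSL2 (0.33) and FOS (0.23) also rose. FOSL2 was not called without L1high replicate 1 (adjusted p = 0.067 by edgeR) or L1low replicate 2 (0.063), and FOS was called only without L1high replicate 3 or L1low replicate 3, with an adjusted p of 0.12 and 0.071 without L1high replicates 1 and 2 and of 0.051 and 0.18 without L1low replicates 1 and 2. FOS, FOSB, JUN and JUNB are also on a list of 11 genes that respond to cell handling. Its summed level ran from 8420 to 9040 CPM in L1high and from 10400 to 11100 CPM in L1low libraries. On this list 5 of the 11 genes were called higher (45.5%, against 4.58% of all genes). Beside FOS and FOSB these were ATF3 (log2 fold change 0.49, adjusted p = 3.8e-04 by edgeR, called with each library left out), EGR1 (0.32, adjusted p = 0.0091) and IER2 (0.37, adjusted p = 0.026). EGR1 was not called without L1high replicate 1 (adjusted p = 0.056 by edgeR) or L1low replicate 2 (0.078), and IER2 was called only without L1high replicate 3 or L1low replicate 1, with an adjusted p of up to 0.15 in the others. The other 6 genes of the list were not called. Their log2 fold changes were 0.24 (JUNB), 0.19 (DNAJB1), 0.08 (JUN), 0.02 (HSPA1A), -0.02 (DUSP1) and -0.05 (HSPA1B). The summed level and the called genes of this list moved with the same groups as the MMP genes, and their part in the rise of the MMP genes was not tested.

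For each gene, the genes with the most similar profile were those with the smallest root mean square difference in log2 CPM over the 6 libraries, after the mean of each gene was taken off. Genes so chosen share the fold change of the gene they match, and the measure says nothing of shared control. MMP10 was closest to ITGB3 (difference 0.096), CCN2 (0.131) and SLC2A5 (0.141), and MMP2 to COL14A1 (0.083), SLC2A5 (0.136) and EDN2 (0.154). The closest profiles to MMP1 were those of FGFR2 (0.143), WNT7B (0.168) and AXL (0.169), and to MMP13 those of KCTD11 (0.125), CNFN (0.152) and PMEPA1 (0.159). MMP14 lay within 0.0114 of RARA, 0.0185 of WASF2 and 0.0240 of SRC. MMP15 was closest to OVOL1 (0.0346), PRSS8 (0.0354) and NSMCE4A (0.0399). TIMP1 was closest to FAM83A (0.0220), CTSL (0.0233) and IFI30 (0.0243), and TIMP3 to SESN3 (0.104), the unnamed gene ENSG00000256484 (0.112) and LINC02541 (0.118). The profiles closest to MMP24 were those of the unnamed genes ENSG00000269318 (0.0463) and ENSG00000235862 (0.0614) and of GARIN4 (0.0658), and to TIMP2 those of TSPAN15 (0.0359), ENSG00000271969 (0.0535) and CT45A8 (0.0572).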

How the data were processed

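Paired-end reads of stranded mRNA libraries from FACS-sorted L3.6pl cells were aligned by the authors to GRCh38 with BWA, and featureCounts assigned them to genes (Ensembl release 94). What the authors deposited are raw read counts, without normalization, for 19469 genes that each exceeded 1 CPM in at least 2 libraries. BWA is not a spliced aligner. The strand and multi-mapping settings of the counting are not given in the sources used here. The submitters' processing notes also name DESeq2. Genes were named from GENCODE release 44, which matched 19344 identifiers.

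L1low was compared with L1high over all 6 libraries in R 4.3.3 with edgeR 4.0.16 (TMM factors, filterByExpr, quasi-likelihood test, Benjamini-Hochberg adjustment over 19467 genes, calls at an adjusted p under 0.05). The study's own table left out L1high replicate 3 without a stated reason, so that fit is one of the alternatives. The standard error is the log2 fold change divided by the square root of F. On simulated data, 178 of 200 genes given a log2 change of 1 (among 19466 genes) were recovered in 190 calls. Deviations of same-numbered L1high and L1low libraries from their group means correlated with r = 0.18, 0.11 and 0.436 over 12675 genes, while r between differently numbered libraries ran from -0.358 to 0.232. L1high replicate 2 correlated better with L1low replicate 1 (0.232) than with its own number. L1high replicate 1 and L1low replicate 2 also had an r over 0.1 (0.126), so these values do not settle whether the replicate number pairs the libraries. No label says that it does. The main fit has no block, and the fit with the replicate number as a block is an alternative. No pair of libraries within a group agreed within sampling noise (lowest chi-square 3.66 per degree of freedom).

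The genes and lists were chosen with earlier results of these data known. Named genes are the 10 members, all MMP and inhibitor genes of the table, called genes of the other lists, genes overlapping a member, and the 3 closest profiles per member among genes whose mean log2 CPM (prior count 2) was 1 or more. List genes named without a call (such as FURIN, PLAU, ITGAV, BSG and ADAM17) are outside this rule and were picked with their values known. Other alternatives were each library left out, DESeq2 1.42.0, 3 scalings (upper quartile, RLE and total counts), no filter, and a minimum of 10 counts in every library.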

Additional observations from a re-analysis of the deposited data

How the results depend on the processing

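The alternatives gave 205 values for 16 results. Neither the direction nor the call changed in 171 of them (or, for counts and ratios, the shift was small), 1 had no adjusted p (TIMP3 in DESeq2), 14 lost their call, 3 changed sign and 16 counts or ratios shifted further. The 14 lost calls were of MMP13, MMP15, MMP24, TIMP1 and TIMP3 with 1 library left out. The sign changes were all of TIMP2, at 0.01 without L1high replicate 2, 0.06 without L1low replicate 1 and 0.01 without L1low replicate 2, and its value was -0.30 without L1low replicate 3. Of the 10 genes, between 4 and 9 were called with 1 library left out, the fewest without L1low replicate 2 (4) and L1high replicate 1 (5). Over the whole table these fits called from 627 to 1473 genes (393 to 859 higher and 234 to 614 lower in L1low cells), against 1548 with all 6 libraries. The study's 5 libraries, without L1high replicate 3, gave 1473. Of the genes on the lists, the fits without 1 library called from 14 to 29, against 32 with all 6 libraries.

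With the replicate number as a block, 2363 genes were called, 1143 of them lower, and no call of the 10 genes changed. The other scalings and filters changed none of these 10 calls, and DESeq2 called the same genes except TIMP3. Of the inhibitor list it called 1 gene (TIMP1), where edgeR called 3.

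The difference in log2 MMP to TIMP ratio (0.84) was 0.69 without length scaling, 0.35 without TIMP1, 0.92 without MMP14 and 0.74 with every MMP and TIMP gene of the table, and from 0.80 to 0.90 with 1 library left out. The cause of these shifts was not tested beyond what each setting removes. TIMP3 had the lowest counts of the 10 genes, 18 to 58 per library.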

Other observations

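Marker genes that belong to no MMP list were also called in edgeR's quasi-likelihood test. KRT19, a simple epithelial keratin, rose from 881 ± 60.6 CPM in L1high to 1360 ± 61.3 in L1low cells (SD, n = 3 each, log2 fold change 0.63), and was called with each library left out. Of the other 6 epithelial markers 2 were called, both lower in L1low cells (42.9% of all 7 called, against 7.95% of all genes). CLDN4, a tight junction claudin, fell from 344 ± 30.2 CPM to 270.0 ± 19.2 (SD, n = 3 each, log2 fold change -0.35), and with 1 library left out was called only without L1high replicate 2 or L1low replicate 3 (highest adjusted p 0.11 by edgeR). EPCAM, an epithelial adhesion molecule, fell from 237 ± 26.9 CPM to 193 ± 6.99 (SD, n = 3 each, log2 fold change -0.30), and was called only without L1high replicate 3 (highest adjusted p 0.18 by edgeR). KRT8 had a log2 fold change of -0.23 and was not called (adjusted p = 0.080 by edgeR). ITGAX, an integrin chain best known from myeloid cells, fell from 13.8 ± 2.21 CPM to 6.94 ± 0.720 (SD, n = 3 each, log2 fold change -0.99). LUM, which encodes the proteoglycan lumican, rose from 82.9 ± 6.13 CPM to 142 ± 11.3 (SD, n = 3 each, log2 fold change 0.78).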
